A study of Homo sapiens with 6 samples.

Results

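The genes described here are 10 components of the machinery that degrades and remodels the extracellular matrix. They are the matrix metalloproteases MMP1, MMP2, MMP7, MMP14 and MMP15, the tissue inhibitors of metalloproteases TIMP1, TIMP2 and TIMP3, the urokinase gene PLAU and the urokinase receptor gene PLAUR. They were taken by symbol from a table of read counts for 35474 genes, and each of the 10 had a row. The table comes from A549, an established human lung adenocarcinoma cell line, collected for RNA 48 h after siRNA transfection. There were 3 cultures with siRNA against BAP18 (siBAP18) and 3 with a non-targeting siRNA (siCtrl), which the labels call biological replicates. The labels name no other treatment, and the sources do not say which of the study's 3 BAP18 siRNAs these cultures received. BAP18, encoded by C17orf49, is a chromatin protein that binds methylated histone H3 and belongs to chromatin remodeling and histone methyltransferase complexes.

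Matrix metalloproteases are zinc enzymes made as inactive precursors. Some are secreted, and others, such as MMP14 and MMP15, are anchored in the plasma membrane, where MMP14 activates the MMP2 precursor with TIMP2 as an adapter. The TIMPs are secreted proteins that block the active site of these enzymes. Urokinase is a serine protease that binds its receptor at the cell surface and turns plasminogen into plasmin, which cleaves matrix proteins and some metalloprotease precursors. Many of these genes carry AP-1 and ETS sites in their promoters, and MMP7 is a known target of TCF/LEF factors.

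Sequences are shown first, for the promoter words of factors known to act on these genes and for matches to the siRNA seeds. RefSeq promoters, from 250 bases before to 50 bases after the RefSeq start, were given for 7 of the 10 genes in the build GRCh38.p14. These 7 genes had 8 entries. MMP1, MMP2 and TIMP2 had no entry. The AP-1 word TGANTCA, searched on both strands, occurred in 7.7% of 35116 promoters and in those of MMP7 and PLAUR, at 67 and 186 bases upstream of the RefSeq start. The PLAUR word lies within the gene span of PLAUR in the deposited coordinates, whose start is further upstream than that of RefSeq. MMP10, another metalloprotease gene chosen for display after its values were seen, holds the word 67 bases upstream. The next 3 lines show these windows, with the AP-1 word in capitals. The MMP7 window is chr11:102530796-102530825, the PLAUR window chr19:43670337-43670366 and the MMP10 window chr11:102780677-102780706, all on the − strand.
MMP7, AP-1 word: aaacactcaaaTGAGTCAcctatttccaca
PLAUR, AP-1 word: tcacaactccaTGAGTCAgggccgagccag
MMP10, AP-1 word: aaacacatgcaTGAATCAtactgttggtga

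Of the members with a promoter, only MMP7 held the TCF/LEF core CTTTGA, a word found in 12.9% of promoters. It occurred 2 times, 194 bases upstream on the sense strand at chr11:102530923-102530952 and 108 bases upstream on the antisense strand at chr11:102530837-102530866. Both windows are printed on the strand of the gene, with the core or its complement in capitals, because MMP7 is the member named among the targets of this pathway.
MMP7, TCF/LEF core, sense: aaaaaaaaatcCTTTGAaagacaaatacat
MMP7, TCF/LEF core, antisense: aacacatacttTCAAAGttctgtagactct

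The remaining words were more common. The ETS core AGGAAG was present in 33.6% of promoters and in those of MMP7, PLAU, PLAUR and TIMP1. The GC box GGGCGG was present in 45.0% of promoters and in those of MMP14, MMP15, TIMP1, TIMP3 and PLAU. The TATA box TATAAA was present in 11.5% of promoters and, among the members, in MMP7, 30 bases upstream. These are matches of letters, and binding was not measured.

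The 3′ UTRs of the 10 genes were also searched for 7-base words that pair with bases 2 to 8 of each siRNA guide, the seed. The word of siBAP18#1 (AATCACA) was found in 11.2% of 18203 3′ UTRs, that of siBAP18#2 (AAGATTC) in 8.8%, that of siBAP18#3 (ACTCAAC) in 5.7% and that of siCtrl (TGTCACG) in 2.4%. Among the members, MMP2 held 1 match for siBAP18#2 and PLAU held 1 for siBAP18#3, and no member held the word of siBAP18#1 or siCtrl. The PLAU match starts at base 225 of a 3′ UTR of 932 bases, at chr10:73916779-73916808 on the + strand. The MMP2 match starts at base 145 of 1249, at chr16:55505576-55505605 on the + strand. The windows follow with the word in capitals, since siRNAs can lower RNAs with such sites.
PLAU, siBAP18#3 word: gggtggtcctgACTCAACatgttactgacc
MMP2, siBAP18#2 word: cctggtaatttAAGATTCcagagagtggct

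Total counts ranged from 46035635 to 53657450 in siCtrl and from 42094524 to 56548620 in siBAP18, and 20776 genes, the 10 members among them, passed the filter on low counts. A gene at 0 counts could still account for 3 counts of a library, at most 0.074 CPM, which is the count scaled to the library's TMM-scaled total. This limit covers counting error only and takes each count as a separate event. Most low counts were even, as when both reads of a pair are counted, and the limit would then be higher. Mitochondrial genes took 6.86% to 7.43% of the counts in siCtrl and 5.27% to 6.14% in siBAP18. On GRCh38, the build of all gene positions given, C17orf49 maps to chr17:7014495-7017525 (+ strand). Replicates 1, 2 and 3, the order used throughout, had 743, 751 and 705 reads of it in siCtrl and 120, 137 and 108 in siBAP18. Its log2 fold change was −2.65 (SE 0.111, edgeR adjusted p = 7.31e-16), so the target was lower in every siBAP18 library. Here and in what follows, adjusted p denotes the Benjamini-Hochberg value of edgeR's quasi-likelihood fit over all genes tested, and SE the standard error of the log2 fold change.

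The labelled cell line was checked against markers of epithelium and of other cell types. All 5 epithelial markers were present at 1 RPKM or more, where RPKM is the count divided by the gene's length and scaled to the library's total. Their summed RPKM was 3830 to 4060 in siCtrl and 2970 to 3440 in siBAP18. Of 7 fibroblast markers, COL1A1 alone reached 1 RPKM, DCN had no row, and the summed level was 1.51 to 1.71 RPKM in siCtrl and 1.09 to 1.36 in siBAP18. Of 5 leukocyte markers, CD68, which also marks lysosomes, alone reached 1 RPKM. PTPRC and CD3E had no row, and the sum was 29.4 to 31.6 RPKM in siCtrl and 54.6 to 70.3 in siBAP18. None of 3 endothelial markers reached 1 RPKM, and their sum was 0.13 to 0.158 RPKM in siCtrl and 0.136 to 0.15 in siBAP18.

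In siCtrl cells the receptor gene PLAUR was the most abundant of the 10 per length, at 54.2 ± 1.24 RPKM (SD, n = 3). TIMP2 (20.35 ± 0.505) and TIMP1 (18.82 ± 1.26) followed with overlapping ranges. PLAU (11.08 ± 0.316) and MMP7 (10.89 ± 0.205) came next, and their ranges overlapped too. MMP15 (3.592 ± 0.0556), MMP2 (1.401 ± 0.0705) and MMP14 (0.8347 ± 0.0987) stood apart from their neighbours in this order. MMP1 (0.2016 ± 0.104) and TIMP3 (0.1544 ± 0.0427) were lowest and overlapped. The mean of PLAUR was 351 times that of TIMP3. In all, 5 members were above 10 RPKM and 3 were below 1 RPKM. The order of the means was the same in siBAP18 cells, and PLAUR made up 44.6% of the members' summed RPKM in siCtrl and 45.8% in siBAP18.

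**Figure D1:**
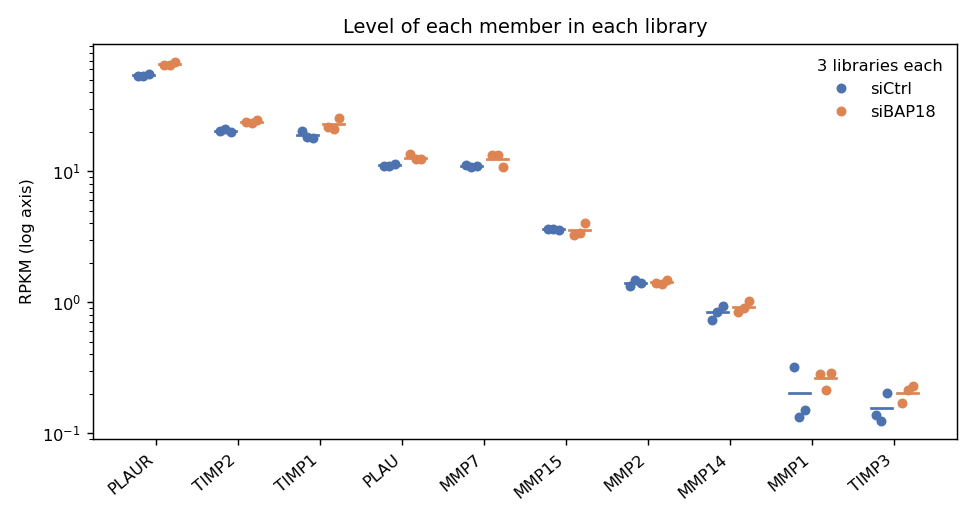
The RPKM of each of the 10 genes (log axis) is plotted for each library, with points for the 3 siCtrl and 3 siBAP18 libraries and a line at each group's mean. PLAUR, at 54.2 RPKM in siCtrl, and TIMP3, at 0.1544, mark the ends of a range of 351-fold, while the siCtrl and siBAP18 points of any 1 gene lie close together on this scale.

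The comparison of siBAP18 with siCtrl asks which genes change in RNA level when BAP18 is knocked down. Among the 10 members the estimated changes were small, though those of MMP1 and TIMP3 were imprecise. Of the 10 members, 5 rose at an adjusted p under 0.05 and none fell. The 5 were PLAUR, TIMP1, TIMP2, PLAU and MMP7, with folds from 1.14 to 1.21. In this comparison 49.6% of all genes tested passed the same threshold, so a count of 5 in 10 is near that of all genes. Of all genes tested, 24.5% passed as higher in siBAP18 and 25.1% as lower. In bulk RNA, a change in the number of cells that express a gene and a change in RNA per cell cannot be told apart. None of the 10 also had an absolute log2 fold change over 1, which 8.46% of all genes tested did. The median log2 fold change was 0.21 over the members and 0.001 over all genes tested, and the estimate was above 0 for 9 of the 10. For 9 of the 10, the 95% interval lay inside −1 to 1, and MMP1 was the exception.

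The genes of the urokinase system both rose. PLAUR encodes the membrane-anchored receptor of urokinase and maps to chr19:43646095-43670547 (− strand). Its counts were 12849, 10928 and 11672 in siCtrl and 15475, 16389 and 12839 in siBAP18. These are 53.7, 53.3 and 55.6 RPKM in siCtrl against 64.3, 65.0 and 68.4 in siBAP18, so the groups did not overlap. The mean was 242.1 ± 7.38 CPM in siCtrl and 293.9 ± 19.8 CPM in siBAP18 (SD, n = 3 each). This corresponds to 1.21-fold, or 0.28 on the log2 scale (SE 0.0678, edgeR adjusted p = 0.00125). PLAUR passed the threshold in all 17 alternatives that were run, with log2 fold changes from 0.23 to 0.31. Among all genes tested, 56.0% had a larger absolute log2 fold change.

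PLAU, which encodes urokinase, maps to chr10:73909177-73917497 (+ strand). Its counts were 1727, 1478 and 1590 in siCtrl and 2144, 2059 and 1523 in siBAP18. Per length it stood at 10.9, 10.9 and 11.4 RPKM in siCtrl and 13.5, 12.3 and 12.3 RPKM in siBAP18, again without overlap. The mean of 32.75 ± 1.14 CPM in siCtrl became 37.41 ± 2.08 CPM in siBAP18 (SD, n = 3 each). On the log2 scale PLAU rose by 0.19 (SE 0.0709, edgeR adjusted p = 0.0273). The adjusted p became 0.112 without siCtrl replicate 1, 0.131 without siCtrl replicate 2, 0.153 without siBAP18 replicate 1 and 0.0749 without the filter on low counts. C10orf55, listed on the opposite strand, shares 916 exon bases with PLAU, 31.1% of its length. The counts of C10orf55 were 400, 366 and 388 in siCtrl and 517, 471 and 332 in siBAP18, with a log2 fold change of 0.12 (edgeR adjusted p = 0.331). The libraries were strand-specific, but whether the counting used strand is not given in the sources used here, so reads of the shared stretch cannot be told apart.

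Of the secreted metalloproteases, MMP7 rose slightly, and MMP1 and MMP2 did not pass the test. MMP7 encodes matrilysin, a small metalloprotease of epithelial cells, and maps to chr11:102520508-102530753 (− strand). Its counts were 1382, 1142 and 1194 in siCtrl and 1660, 1750 and 1056 in siBAP18. The RPKM values were 11.1, 10.7 and 10.9 in siCtrl and 13.2, 13.3 and 10.8 in siBAP18. Replicates 1 and 2 of siBAP18 were above every siCtrl library, and replicate 3 was within the siCtrl range. On the log2 scale the rise was 0.19 (SE 0.0756, edgeR adjusted p = 0.0421). MMP7 passed in only 7 of 17 alternatives. Its adjusted p was 0.0919, 0.17 and 0.106 without siCtrl replicates 1, 2 and 3, 0.2 and 0.0814 without siBAP18 replicates 1 and 2, and 0.00133 without siBAP18 replicate 3.

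MMP2, or gelatinase A, which cleaves denatured collagen and type IV collagen, maps to chr16:55389700-55506691 (+ strand). It had 352, 334 and 326 counts in siCtrl and 375, 384 and 306 in siBAP18. The levels of 1.33, 1.47 and 1.40 RPKM in siCtrl and 1.41, 1.38 and 1.47 in siBAP18 were intermingled. Its change of 0.01 on the log2 scale had a 95% interval from −0.20 to 0.23 (edgeR adjusted p = 0.926). MMP1, the interstitial collagenase, maps to chr11:102789920-102798160 (− strand). It had 34, 12 and 14 counts in siCtrl and 30, 24 and 24 in siBAP18, and siCtrl replicate 1 was the highest of the 6 libraries at 0.322 RPKM. The log2 fold change of 0.34 had a 95% interval from −0.44 to 1.12 (edgeR adjusted p = 0.481), so at this depth a change of this size was not detectable. Without siCtrl replicate 1 it was 0.87 (edgeR adjusted p = 0.117), and without siCtrl replicate 2 it was 0.11 (edgeR adjusted p = 0.86). WTAPP1, listed on the opposite strand, shares 150 exon bases with MMP1 and had similar counts of 33, 16 and 15 in siCtrl and 37, 28 and 20 in siBAP18.

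The membrane-type metalloproteases did not pass the test. MMP14, which activates the MMP2 precursor and cleaves fibrillar collagen, maps to chr14:22836557-22849027 (+ strand). Its counts were 176, 172 and 196 in siCtrl and 202, 229 and 191 in siBAP18, or 0.735, 0.837 and 0.932 RPKM against 0.838, 0.907 and 1.02. The groups overlapped, and the log2 fold change was 0.13 with a 95% interval from −0.15 to 0.42 (edgeR adjusted p = 0.444). MMP15, its close relative, maps to chr16:58025566-58046901 (+ strand). Its counts were 852, 742 and 736 in siCtrl and 776, 841 and 748 in siBAP18. Replicates 1 and 2 of siBAP18 (3.25 and 3.37 RPKM) were below all 3 siCtrl libraries (3.59, 3.65 and 3.54 RPKM), and replicate 3 (4.02 RPKM) was above them. MMP15 had a log2 fold change of −0.02 and a 95% interval from −0.21 to 0.16 (edgeR adjusted p = 0.844). Its direction turned without siBAP18 replicate 1 or 2.

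Of the inhibitors, TIMP1 and TIMP2 rose. TIMP2, which blocks MMP2 and also links it to MMP14, maps to chr17:78852977-78925387 (− strand). Its counts were 6091, 5427 and 5301 in siCtrl and 7167, 7477 and 5859 in siBAP18. With 20.2, 20.9 and 20.0 RPKM in siCtrl and 23.6, 23.5 and 24.7 in siBAP18, the groups did not overlap. TIMP2 rose by 0.23 on the log2 scale (SE 0.0668, edgeR adjusted p = 0.00578), and it passed in 17 of 17 alternatives. CEP295NL, listed on the same strand within TIMP2, shares 198 exon bases with it, 3.52% of its length, and had an estimate of 0.25 (edgeR adjusted p = 0.00402). The counts of CEP295NL were 3245, 2878 and 2839 in siCtrl and 3838, 4024 and 3194 in siBAP18. Reads of the bases shared by these genes cannot be told apart, even where counting uses strand. RP11-323N12.5, on the opposite strand, shares 367 bases with TIMP2, with an estimate of 0.16 (edgeR adjusted p = 0.293).

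TIMP1, a secreted inhibitor of most metalloproteases, maps to chrX:47582313-47586789 (+ strand). Its counts were 1674, 1300 and 1298 in siCtrl and 1806, 1835 and 1653 in siBAP18. The levels were 20.2, 18.3 and 17.9 RPKM in siCtrl and 21.7, 21.1 and 25.5 in siBAP18, with siBAP18 replicate 3 the highest and no overlap on this scale. TIMP1 rose by 0.27 on the log2 scale (SE 0.0859, edgeR adjusted p = 0.0112). Without siBAP18 replicate 3 it was 0.15 (edgeR adjusted p = 0.0586). The adjusted p was 0.0688 and 0.0658 without siCtrl replicates 2 and 3. TIMP3, which is held in the matrix and also blocks ADAM17, maps to chr22:32801701-32863043 (+ strand). It had only 34, 26 and 44 counts in siCtrl and 42, 56 and 44 in siBAP18, or 0.138, 0.123 and 0.203 RPKM against 0.169, 0.215 and 0.227. Its log2 fold change of 0.39 was the largest of the 10 but had a 95% interval from −0.18 to 0.96 (edgeR adjusted p = 0.259), and the groups overlapped. Over the 6 libraries, the genes most like TIMP3 in log2 CPM were CYCS (Pearson r 0.969), IGFN1 (0.969) and AC008440.10 (0.952). They were picked as the highest among all genes tested with a mean log2 CPM of at least 1, so the r values carry no test. They are given as a description because so few reads lie behind TIMP3.

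**Figure D2:**
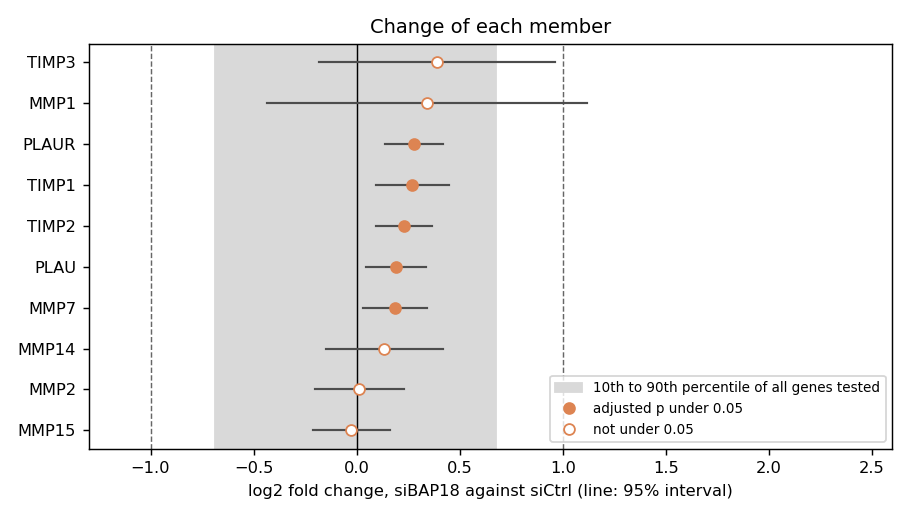
The log2 fold change of each gene (siBAP18 against siCtrl) is drawn with its 95% interval, filled where the adjusted p was under 0.05, with dashed lines at −1 and 1 and a grey band for the middle 80% of all genes tested, from −0.685 to 0.675. The 10 estimates, from −0.025 to 0.389, lie inside the band, and the intervals of MMP1 and TIMP3 are the widest.

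By the separation of groups, 4 of the 10 genes (PLAUR, TIMP1, TIMP2 and PLAU) had every siBAP18 library above every siCtrl library in RPKM, 6 overlapped and none was lower. Over all genes tested, 27.8% were higher in this way. In TMM-scaled CPM, the scale of the test, 4 members were also higher without overlap (27.6% of all genes tested), but TIMP1 was not among them and MMP7 was. TIMP1 then stood at 31.5 CPM in siCtrl replicate 1 and 31.4 CPM in siBAP18 replicate 2. The middle 80% of all genes tested had log2 fold changes from −0.685 to 0.675, and the median absolute log2 fold change was 0.327 over all genes and 0.211 over the members. Leaving out 1 library at a time gave between 2 and 4 members past the adjusted p, with 2 when siCtrl replicate 2 was left out and 3 without siCtrl replicate 1, siCtrl replicate 3 or siBAP18 replicate 1. In the same fits, 42.0% to 50.2% of all genes tested passed, and 42.0% without siCtrl replicate 2. TIMP2 and PLAUR remained past it in each of these.

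**Figure D3:**
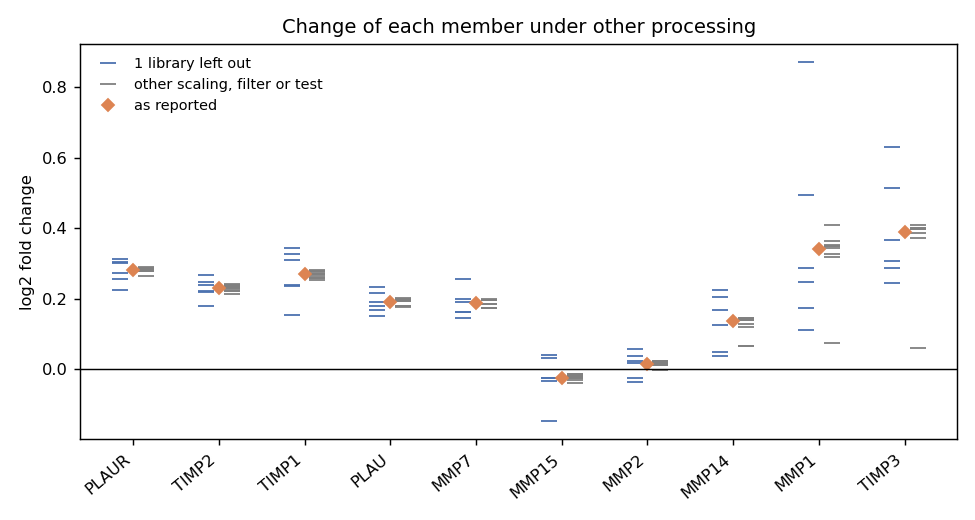
For each gene, the log2 fold change as reported (diamond) is set beside the values with 1 library left out (left dashes) and with another scaling, filter or test (right dashes). PLAUR and TIMP2 span 0.225 to 0.312 and 0.179 to 0.266, MMP2 and MMP15 lie on both sides of 0, and MMP1 and TIMP3 spread the most.

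Ratios of RPKM within a library show the balance between a protease and its partner. The ratio of PLAU to PLAUR was 0.203, 0.204 and 0.206 in siCtrl and 0.209, 0.19 and 0.179 in siBAP18, and the groups overlapped. The ratio of MMP2 to TIMP2 was 0.066, 0.0703 and 0.0702 in siCtrl and 0.0597, 0.0586 and 0.0596 in siBAP18, without overlap. Its mean went from 0.0688 ± 0.00246 to 0.0593 ± 0.000608 (SD, n = 3 each), as TIMP2 rose and the level of MMP2 was intermingled between the groups. The ratios of MMP14 to TIMP2 (0.041 against 0.0384) and of MMP1 to TIMP1 (0.0105 against 0.0115) overlapped. These ratios are of RNA and carry no test, and with 3 against 3 an exact permutation test cannot go below 0.1.

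**Figure D4:**
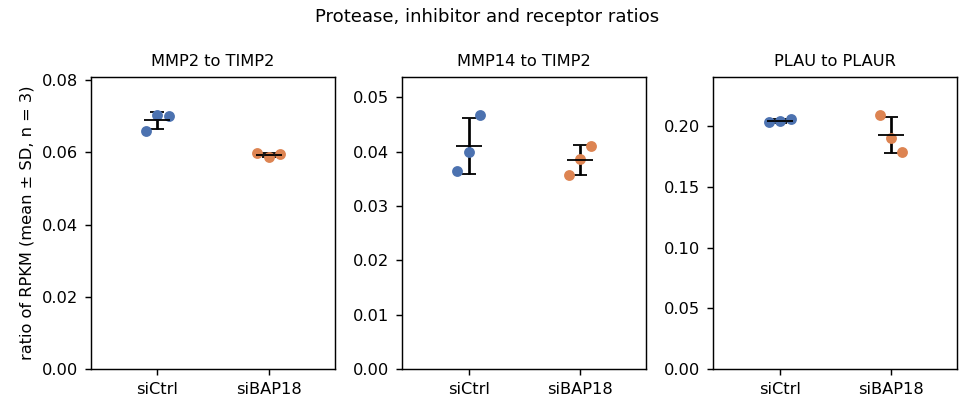
Ratios of RPKM in each library are plotted for siCtrl and siBAP18, with the mean and SD of 3 libraries and axes that start at 0. MMP2 to TIMP2 was lower in siBAP18 (0.0688 against 0.0593) with no overlap, while MMP14 to TIMP2 (0.041 against 0.0384) and PLAU to PLAUR (0.204 against 0.193) overlapped.

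The rest of the system was described with 6 lists of 70 other genes, of which 65 had a row and 54 were tested. Of the 54, 22 rose, 12 fell and 20 did not pass the adjusted p of 0.05. Both thresholds were passed by 9 that were higher and 2 that were lower in siBAP18. The median log2 fold change over the 54 was 0.11. The counts of each list are to be read against all genes tested, of which 24.5% rose, 25.1% fell and 8.46% passed both thresholds, and the difference between a list and other genes was not tested.

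Of 18 other metalloprotease genes, 14 had a row and 9 were tested, and of these 4 rose, 3 fell and 2 did not pass. MMP8, MMP12, MMP26 and MMP27 had no row, and MMP3, MMP11, MMP13, MMP20 and MMP21 were not tested, with 12 counts or fewer in any library. Unlike the members, this list held genes past both thresholds. MMP19, which cleaves basement membrane proteins, had 17, 17 and 21 counts in siCtrl and 109, 138 and 76 in siBAP18, so the groups were well apart. Its log2 fold change was 2.46 (SE 0.247, edgeR adjusted p = 7.47e-09). TMEM198B, on the opposite strand, shares 814 exon bases with MMP19, and its own adjusted p was 0.484. MMP10, or stromelysin 2, whose AP-1 window is printed above, had 12, 14 and 6 counts in siCtrl and 46, 37 and 34 in siBAP18. Its log2 fold change was 1.80 (edgeR adjusted p = 0.000234).

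MMP28, or epilysin, fell from 227, 201 and 214 counts to 107, 91 and 96, a log2 fold change of −1.18 (edgeR adjusted p = 6.86e-07). MMP16, a membrane-type metalloprotease, had 30, 21 and 32 counts in siCtrl and 8, 12 and 2 in siBAP18, with a log2 fold change of −1.99 (edgeR adjusted p = 0.000527). MMP23B had 3, 6 and 9 counts in siCtrl and 20, 15 and 12 in siBAP18 (log2 fold change 1.29, edgeR adjusted p = 0.035). It has a near-identical copy, MMP23A, and shares 37 exon bases with CDK11B, which had between 13898 and 21469 counts in the libraries, so this value is uncertain. The adjusted p of MMP23B was 0.199, 0.0897, 0.132 and 0.0572 without siCtrl replicates 1 and 2 and siBAP18 replicates 1 and 3 in turn. The mean level of each of these 5 genes was at or below 1.533 RPKM in both groups.

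The highest of the other metalloproteases was MMP24, a membrane-type enzyme, named here after its values were seen. It had 2241, 1886 and 2005 counts in siCtrl and 3941, 3931 and 3358 in siBAP18, and its level rose from 9.462 ± 0.181 to 16.79 ± 1.18 RPKM (SD, n = 3 each). This is 0.82 on the log2 scale (SE 0.0753, edgeR adjusted p = 1.48e-09). In siBAP18 cells it was therefore above MMP7 (12.45 ± 1.43 RPKM), the highest metalloprotease among the 10 members. MMP24-AS1, on the opposite strand, shares 799 exon bases with it, 18.1% of the length of MMP24, and had an adjusted p of 0.316. RP4-614O4.13, also on the opposite strand, shares 162 exon bases and rose by 0.45 (edgeR adjusted p = 0.000311). RP4-614O4.11 overlaps the span of MMP24 without a shared exon base and rose by 0.55 (edgeR adjusted p = 4.85e-06).

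Of 7 inhibitor genes, 6 were tested, 2 rose, 1 fell and 3 did not pass. TFPI2, an inhibitor of plasmin and other serine proteases, had 3889, 3289 and 3441 counts in siCtrl and 9988, 9640 and 6500 in siBAP18, so the groups were well apart. It rose by a log2 fold change of 1.23 (SE 0.0691, edgeR adjusted p = 2.24e-13). GNGT1, on the opposite strand, shares 44 exon bases with TFPI2 and had an estimate of 1.18 (edgeR adjusted p = 5.19e-09). AC002076.10, on that strand too, shares 79 exon bases and was not tested. SERPINE2, or protease nexin 1, had 1580, 1384 and 1411 counts in siCtrl and 3036, 3076 and 1990 in siBAP18 and rose by 0.81 (SE 0.0705, edgeR adjusted p = 5.73e-10). TIMP4 was the 1 that fell, with a log2 fold change of −0.60 (edgeR adjusted p = 0.02). Its adjusted p was 0.0837 without siCtrl replicate 3 and 0.0719 without siBAP18 replicate 1. Thus 2 of the 4 TIMP genes rose, 1 fell and TIMP3 did not pass.

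Of 9 genes of the plasminogen system, 8 were tested and 6 did not pass. PLG, the plasminogen gene itself, had 2 counts in 1 library and none in the others. The plasminogen receptor subunits ANXA2 (log2 fold change −0.02) and S100A10 (−0.01) and the urokinase clearance receptor LRP1 (−0.05) were among those that did not pass. PLAT, the tissue-type activator, was estimated at 0.35 (edgeR adjusted p = 0.101). SRPX2, a ligand of the urokinase receptor, rose by 0.36 (edgeR adjusted p = 0.0163), with an adjusted p of 0.0894 and 0.0701 without siCtrl replicates 1 and 2. VTN, or vitronectin, was lower by a log2 fold change of −0.26 (edgeR adjusted p = 0.0111), with an adjusted p of 0.103 without siBAP18 replicate 1.

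Of 9 activators and inducers of metalloproteases, 7 were tested, 3 rose, 1 fell and 3 did not pass. BSG, the inducer EMMPRIN, rose by a log2 fold change of 0.44 and the protease gene CTSB by 0.57. CTSL rose by 0.17 (edgeR adjusted p = 0.0288), which was lost without siCtrl replicate 1, 2 or 3 or siBAP18 replicate 1 (edgeR adjusted p 0.136, 0.0741, 0.137 and 0.0822). The convertase gene PCSK5 was among the falls, at −0.95, while FURIN, another convertase that cleaves the MMP14 precursor, did not pass (0.08, edgeR adjusted p = 0.4). Of 15 ADAM and ADAMTS genes, 12 were tested, and 4 rose, 4 fell and 4 did not pass, beside 24.5% higher and 25.1% lower over all genes tested. The sheddase genes ADAM10 (−0.82) and ADAM17 (−0.54) and the aggrecanase gene ADAMTS9 (−0.84) were among those that fell, and ADAM19 (0.72) among those that rose.

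All 12 AP-1 and ETS factors of the list were tested, and 8 rose, 2 fell and 2 did not pass, with a median log2 fold change of 0.84. Over all genes tested, 24.5% rose. Both thresholds were passed by 5 of the 12, all higher, against 8.46% of all genes tested in either direction. The 5 were FOSB (4.73), FOSL1 (3.70), JUN (3.39), ETS1 (1.55) and FOS (1.25). FOSB had only 8, 8 and 8 counts in siCtrl, against 246, 261 and 170 in siBAP18. The size of its fold change therefore rests on few siCtrl reads, and it was not tested where at least 10 counts in every library were required. Beside these factors, MMP7 and PLAUR, the members with an AP-1 word in the promoter, had log2 fold changes of 0.19 and 0.28. Members whose promoters held no such word had 0.269 (TIMP1), 0.389 (TIMP3), 0.191 (PLAU), 0.135 (MMP14) and −0.025 (MMP15). MMP10 had 1.80, but of the listed genes only its promoter words were read, and it was chosen after its values were seen. Whether these factors bear on those genes was not tested.

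**Figure D5:**
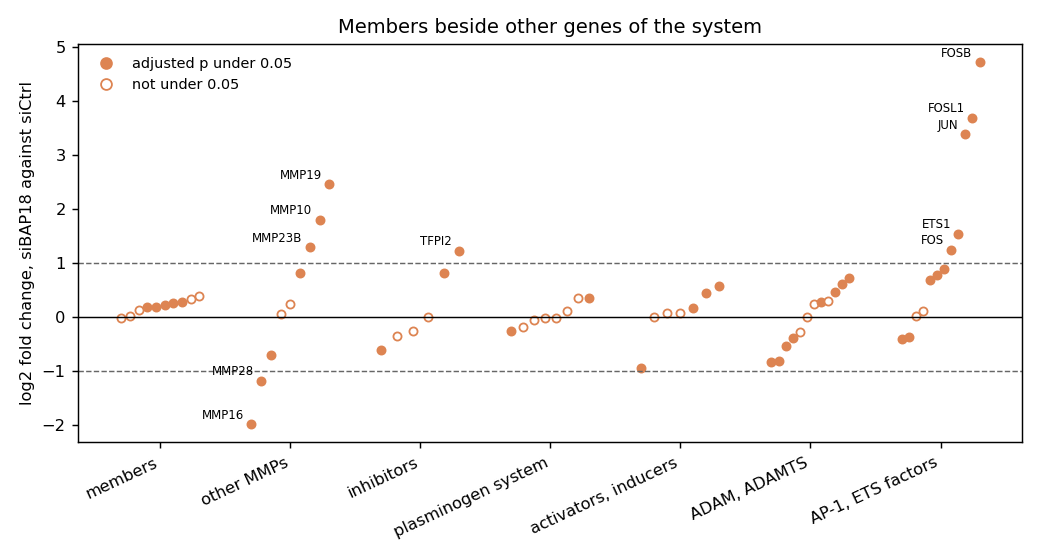
Each point is the log2 fold change (siBAP18 against siCtrl) of 1 tested gene, in the 10 members and the 6 lists, filled where the adjusted p was under 0.05, with dashed lines at −1 and 1. The members lie between −0.025 and 0.389, while MMP19 (2.465) and FOSB (4.725) lie far above the upper line and MMP16 (−1.986) and MMP28 (−1.176) below the lower one.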

How the data were processed

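The authors deposited counts of reads per gene, without normalization, and RPKM per gene for the 6 libraries. The RPKM equalled the count per kilobase of listed length relative to the column total, to within 4.7e-11. Poly(A) RNA was sequenced as strand-specific, paired-end libraries. The submitters' processing notes name the builds GRCm38 and hg38. The spans and strands of the 10 genes were the same as in GENCODE 29 on GRCh38. The aligner, the counting program and its use of strand are not given in the sources used here. Among genes with 1 to 20 counts, 74.9% to 77.2% of counts were even in every library, as when both reads of a pair are counted, so counts divided by 2 were added as an alternative after seeing the data.

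Counts were scaled by TMM (factors 0.9636 to 1.0335), filtered with filterByExpr and compared by condition with edgeR 4.0.16's quasi-likelihood test in R 4.3.3, with Benjamini-Hochberg adjustment over 20776 genes. The p-values set the difference between the groups against the spread between 3 cultures per group, which edgeR moderates with information from all genes. CPM are relative to the TMM-scaled total. Alternatives were other scalings, DESeq2 1.42.0, other filters, limma 3.58.1 on log2(RPKM + 1) or log2(RPKM + 0.1) with a mean of at least 0.5 RPKM or no filter, a replicate block and each library left out. Replicate numbers did not pair the libraries (residual Pearson r −0.0166, 0.0506 and 0.00379). The steps were tested on simulated data. The members, lists, words and markers were chosen with earlier results of these data known. Named were the members, genes that overlap them, the 3 genes most like TIMP3 (mean log2 CPM not under 1), and from each list the genes past both thresholds, with those of smallest adjusted p added up to 4. Other genes named in the lists were chosen after their values were seen. Words were searched with Python 3.11.15, pandas 2.3.3 and numpy 2.4.6, in 3′ UTRs of at least 50 bases from GENCODE 29, and plots drawn with matplotlib 3.10.9. No protein sequences were used here, and 1 listed gene and a ratio with it are not reported here.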

Additional observations from a re-analysis of the deposited data

How the results depend on the processing

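The count of members past the adjusted p, 5, became 3 without the filter on low counts, 3 under limma on log2(RPKM + 1) without a filter, and 2 to 4 with 1 library left out. The share of all genes tested that passed was 49.6% as reported and 29.3%, 22.1% and 42.0% to 50.2% in these settings. Without the filter, the edgeR test covered 35474 genes instead of 20776, and 10396 passed against 10305. Under the other scalings, DESeq2's Wald test and the minimum of 10 counts, the count of members stayed within 1.5 times of 5. The same held for the filtered limma fits and halved counts. No setting brought a member past both thresholds. The count of listed genes past both thresholds, 11, became 7 with at least 10 counts in every library. There FOSB, MMP10, MMP16 and MMP23B were not tested, which left 7 of the 11. The count became 6 under limma on log2(RPKM + 0.1), where the filter left 6 of the 11 and all 6 passed. Under limma on log2(RPKM + 1) it was 4 of the same 6. Without a filter, limma on log2(RPKM + 1) tested the 11 and 4 passed. Over the leave-one-out fits it lay from 10 to 12. MMP1 and TIMP3 could not be tested in the filtered RPKM fits.

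MMP2 changed sign to −0.002 without a filter. With 1 library left out, MMP2 ranged from −0.0375 to 0.0582, below 0 without siCtrl replicate 1 (−0.0239) or siBAP18 replicate 3, and MMP15 from −0.148 to 0.0402, above 0 without siBAP18 replicate 1 or 2 (0.0326). The cause was not tested. Of the single-gene values under alternatives, 37 lost the threshold and 5 reversed, against 513 that did neither. These values pool members that had not passed as reported, which had no threshold to lose, with C17orf49 and the listed genes named for passing. The tally is therefore no measure of how stable the calls of members are. Among the 5 members called, MMP7 passed in 7 of 17 alternatives, TIMP1 and PLAU in 13 each, and TIMP2 and PLAUR in all 17. With a replicate block, 5 members passed the adjusted p, with log2 fold changes of 0.278 for PLAUR, 0.264 for TIMP1, 0.228 for TIMP2, 0.192 for PLAU and 0.185 for MMP7, and 35 listed genes, 11 of them past both thresholds. It changed no call of a member. Depth limits MMP1 and TIMP3, with 12 to 56 counts per library.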
